A study of Mus musculus with 4 samples.

Results

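The IL-4 reporter sort of mouse CD4 T cells held 7646 cell barcodes, and 5968 of them passed a minimum of 500 genes and had no UMI of Cd79a, a B-cell receptor gene. Of those 5968 barcodes, 1743 carried more than 10% of their UMIs (unique molecular identifiers, 1 per captured RNA molecule) on the 13 protein-coding genes of the mitochondrial genome, and the other 4225 carried at most 10%. The sides were chosen by that measured share alone, and values that follow from it are given as description. The first set is called the high side here and the second the low side. The high side was 29.2% of the 5968 barcodes (Wilson 95% interval 28.1 to 30.4%, counting error only). A further 1201 barcodes with fewer than 500 genes were left out, with a median mitochondrial share of 44.6%, and so were 477 barcodes with a Cd79a UMI, of which 117 were above the limit and 360 were not.

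Both sides came from the same 3 mice and the same 10x lane, so they shared strain, treatment and library. The mice carried the 4get IL-4 reporter on a C57BL/6 background, in which a green fluorescent protein marks cells that have opened the Il4 locus. They received 10 μg of Alternaria alternata extract with 25 μg of the hapten-protein antigen NP-OVA intranasally. On day 7, activated reporter-positive CD4 T cells of the mediastinal lymph node were sorted, then stimulated with PMA and ionomycin for 30 minutes before capture with version 3 chemistry. Sex and age were not in the labels used here. The reporter marks cells by their history at Il4, so it does not restrict the sort to cells that held Il4 RNA at capture.

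Each mouse was told apart by an antibody tag whose oligonucleotide is read beside the RNA. The labels speak of hashtags 3 to 6 and the hashtag table of the reporter sort holds 3 of these, so n = 3 mice rests on taking each tag in the table as 1 mouse. These oligos are shown because they set the replicate of every value below and give a readout that did not choose the sides. In lower case, 5′ to 3′, they were:
MHTO3, mouse 1: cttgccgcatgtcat
MHTO4, mouse 2: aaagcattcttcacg
MHTO5, mouse 3: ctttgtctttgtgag
A barcode was given to a mouse when its top tag had 10 or more counts and at least 3 times the second tag. That left out 199 of 1743 high-side barcodes (11.4%) and 557 of 4225 low-side barcodes (13.2%). The high side then held 497, 501 and 546 barcodes and the low side 1239, 1075 and 1354 in mice 1, 2 and 3. The high side was 28.6%, 31.8% and 28.7% of the assigned barcodes in mice 1, 2 and 3. In the other sort of the series, Tfh cells run on another lane with version 2 chemistry, 23 of 3177 barcodes passing the same filters were above the limit (0.724%). Sort, lane and chemistry cannot be told apart in that contrast, and it was not tested.

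As background, the mitochondrial genome is transcribed inside mitochondria, and its RNAs stay within that organelle's membranes. Most nuclear-encoded mRNAs are translated in the cytosol, whereas those for secreted and membrane proteins are translated on ribosomes bound to the endoplasmic reticulum (ER), and some long noncoding RNAs stay in the nucleus. A high mitochondrial share of UMIs is widely used in droplet data to leave out barcodes of damaged cells. The comparison here asked what the nuclear-genome RNA of the barcodes beyond such a limit looked like, with the mitochondrial genes left out of every total.

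The sides had nearly equal mitochondrial RNA and differed in nuclear-genome RNA. Median mitochondrial UMIs per barcode were 422, 441 and 426.5 on the high side and 391, 405 and 385 on the low side in mice 1, 2 and 3. These medians differed by 1.08, 1.09 and 1.11 times, so the numerator of the share hardly separated the sides. Median nuclear-genome UMIs were 1751, 1828 and 1839.5 on the high side and 6484, 6369 and 6105.5 on the low side. The low side thus held 3.70, 3.48 and 3.32 times as many, with no overlap between the mice's medians. Since the share is built from both counts, these values describe the rule and were not tested.

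The antibody tags did not follow the nuclear-genome RNA. Median hashtag counts per assigned barcode were 372, 392 and 388 on the high side and 399, 458 and 375 on the low side, so the sides overlapped and mouse 3 ran the other way from mice 1 and 2. The assignment rule needs 10 tag counts, and 0 high-side and 8 low-side barcodes fell under it. Median genes per barcode were 976, 1016 and 1020.5 on the high side and 2083, 2120 and 2088.5 on the low side.

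**Figure D1:**
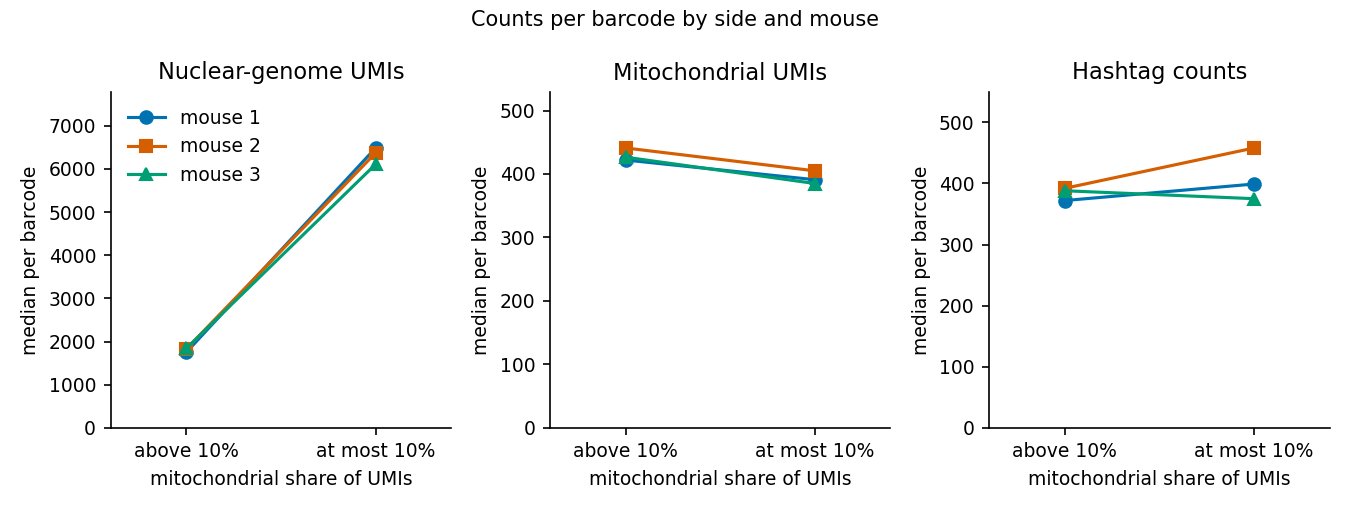
Median nuclear-genome UMIs, mitochondrial UMIs and hashtag counts per barcode (y axes, from 0) on the side above 10% and the side at most 10% mitochondrial UMIs, with 1 line per mouse. Nuclear-genome UMIs were 1751 to 1839.5 against 6105.5 to 6484, while mitochondrial UMIs and hashtag counts lay close together.

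The share had no gap at the limit. There were 112 assigned barcodes from 10 to 11% and 133 from 9 to 10%. Over all 1743 barcodes of the high side the median share was 17.5% and the highest 65.3%, and over all 4225 of the low side the median was 5.32%. Just inside and just outside the limit, among barcodes thinned to 1000 nuclear-genome UMIs, cytosolic ribosomal proteins took 17.8% of UMIs at 10 to 11% (106 barcodes) and 21.7% at 9 to 10% (127 barcodes). ER chaperones took 0.444% and 0.359%, and the nuclear RNA Malat1 5.03% and 4.29%, at 10 to 11% and at 9 to 10%.

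Among the mitochondrial genes themselves, which chose the sides, the mix was similar on both. mt-Atp6 (ATP synthase) led with 27.1% ± 0.305 of mitochondrial UMIs on the high side and 25.2% ± 0.189 on the low side (SD, n = 3 mice). mt-Co3 (cytochrome oxidase) took 20.5% ± 0.337 and 20.5% ± 0.279 on the high and the low side, and mt-Co1 took 10.7% ± 0.534 and 12.5% ± 0.253.

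At an equal number of counted UMIs, high-side barcodes spread their nuclear-genome UMIs over more genes. When each barcode was thinned to 1000 such UMIs, it showed 632.2, 635.7 and 638.2 genes on average on the high side, against 571.4, 581.3 and 587.4 on the low side. The difference was 55.3 ± 5.07 genes (SD, n = 3 mice) and was positive in 3 of 3 mice. An exact paired permutation test over mice gave p = 0.25, which is the smallest value 3 mice allow. Thinning left out 149 high-side and 80 low-side barcodes under 1000 UMIs.

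For gene-by-gene tests, equal numbers of barcodes of each side were drawn within each mouse from narrow bins of nuclear-genome depth, 245, 246 and 325 per side in mice 1, 2 and 3. The drawn barcodes had median depths of 2291, 2919.5 and 2452 UMIs on the high side and 2243, 2939 and 2447 on the low side. They came from the deep end of the high side and the shallow end of the low side. Summed per mouse and side, they gave 741647 to 1057340 UMIs. A second comparison therefore used every barcode with 1000 or more UMIs, each thinned to 1000. Its values are given beside those at matched depth for most of the lists and many of the genes. Thinning evened the UMIs counted per barcode, but not the depth that the barcodes had before it. Median nuclear-genome UMIs before thinning were 1857, 1961 and 2028 on the high side in mice 1, 2 and 3. On the low side they were 6540.5, 6475 and 6197, so the thinned comparison is not matched for original depth. Levels are in CPM, counts per nuclear-genome total set to a common size after TMM scaling, so they are relative within a sum.

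edgeR's quasi-likelihood test with the mouse as a block tested 8297 genes at matched depth. At a Benjamini-Hochberg adjusted p under 0.05 it called 2349 genes (28.3%), of which 1266 (15.3%) were higher and 1083 (13.1%) lower on the high side. The median log2 change over all tested genes was 0.02. With plain totals in place of TMM that median was 0.24 and the split became 2082 higher and 558 lower. Without depth matching 5949 of 10912 genes were called (54.5%). DESeq2 called 940 genes at matched depth, and leaving out mouse 3 left 1421. The thinned comparison called 3461 of 7585 genes (45.6%), 1669 higher (22.0%) and 1792 lower (23.6%). Of the 1165 genes called higher at matched depth and tested in both, 695 were called higher when thinned and 48 lower. Of the 1068 called lower, 856 were called lower when thinned and 7 higher. The 2 comparisons share barcodes, so this count is not independent support. Each fit had 6 sums and 2 residual degrees of freedom. With so few, very small adjusted p-values cannot come from a gene's own spread between mice alone. Counts of calls, such as the 45.6% when thinned, carry the same limit.

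Cytosolic ribosomal proteins fell almost as a block. Of 83 tested genes of the protein parts of the cytosolic ribosome, 81 were lower on the high side and none was higher, with a median log2 change of -0.93. The 2 not called were the paralogs Rps27l at -0.32 and Rpl7l1 at 0.11. Rps27 had 1258, 1130 and 1385 CPM on the high side, against 3335, 3230 and 3246 CPM on the low side. The sides did not overlap, and its log2 change was -1.38 ± 0.06 (SE, edgeR adjusted p = 4.55e-13). Rps24 averaged 2836 ± 122.8 CPM on the high side and 7253 ± 195.9 CPM on the low side (SD, n = 3 mice each). Rplp1, a protein of the ribosome's stalk, had a log2 change of -1.14 ± 0.04 (edgeR adjusted p = 7.34e-14). Thinned, 82 of the 83 were lower, with a median of -1.26, and with plain totals 80 were lower, with a median of -0.70. Ribosomal protein genes have many processed pseudogenes, and how the authors' counting treated shared reads is not given in the sources used here.

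Transcripts of the cytoskeleton and of abundant cytosolic proteins went the same way. Of 20 listed genes, 18 were lower on the high side and none was higher, with a median of -0.66. Tmsb4x, which encodes the actin-binding peptide thymosin beta 4, had 7752, 8209 and 7990 CPM on the high side, against 17610, 18180 and 15240 CPM on the low side. Its log2 change was -1.09 ± 0.04 (SE, edgeR adjusted p = 7.34e-14), and the sides were far apart in each mouse. Tpt1, translationally controlled tumour protein, had 4793, 4302 and 4977 CPM on the high side and 12850, 13070 and 12150 CPM on the low side, a log2 change of -1.44 ± 0.05. Tmsb10, another thymosin, fell by 1.21 and Eef1a1, a translation elongation factor, by 0.84 on the log2 scale. Actb, cytoplasmic actin, averaged 6655 ± 245 CPM on the high side and 9368 ± 351.8 CPM on the low side. Ptma and Tpm3 were not called, at 0.05 and 0.03. Thinned, all 20 of the listed genes were lower, with a median of -1.0.

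**Figure D2:**
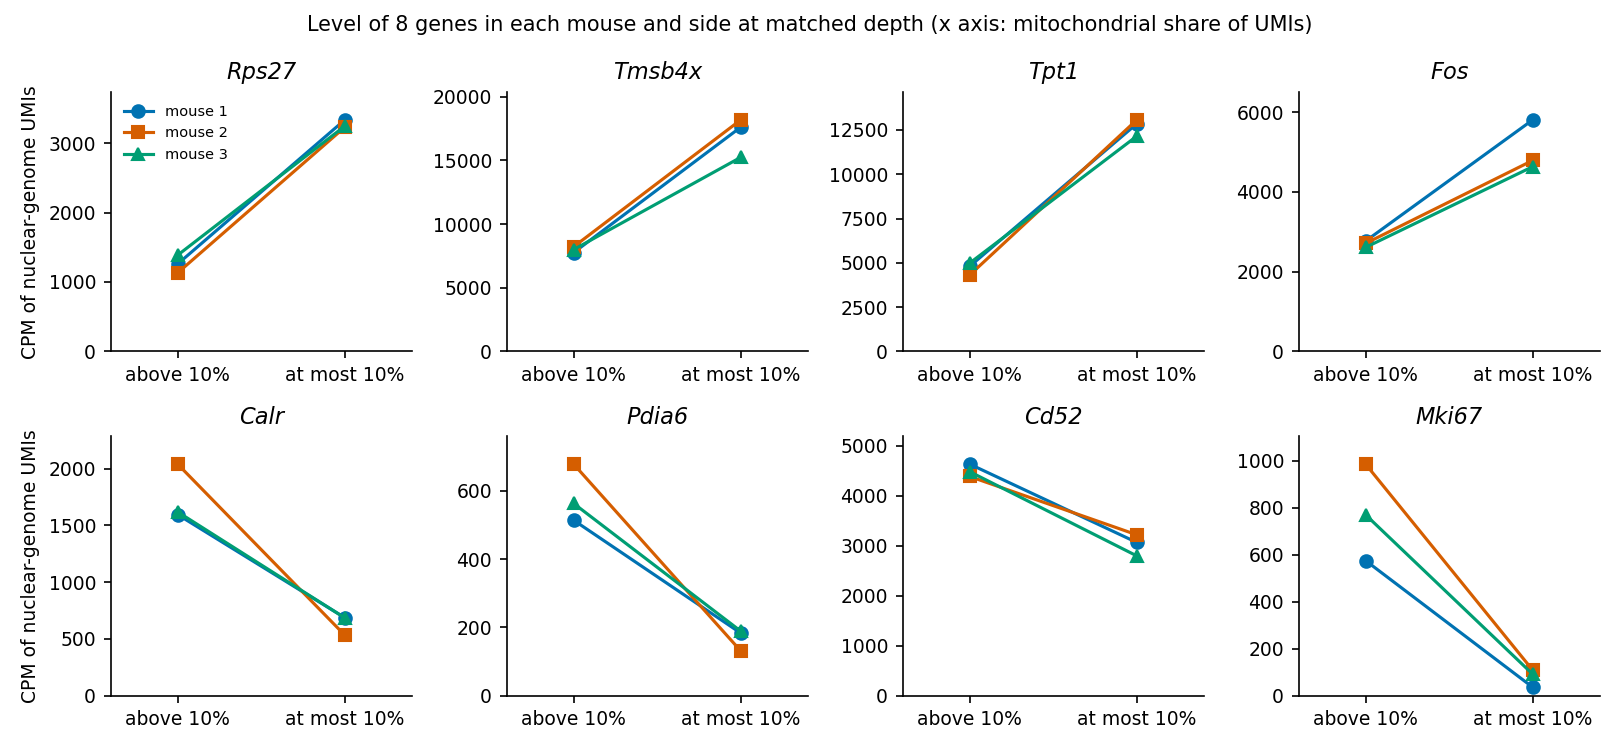
Level of 8 genes in CPM of nuclear-genome UMIs (y axes, from 0) on the side above 10% and the side at most 10% at matched depth, with 1 line per mouse. Rps27, Tmsb4x, Tpt1 and Fos were lower on the high side in each mouse, and Calr, Pdia6, Cd52 and Mki67 were higher; the Mki67 difference was smaller when barcodes were thinned.

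Nuclear-encoded subunits of the respiratory chain were mostly lower, although the mitochondrial share was by construction higher. Of 39 listed genes, 23 were lower and 3 higher, with a median of -0.42; thinned, 37 were lower and 1 higher, with a median of -1.01. Atp5e, an ATP synthase subunit, averaged 308.2 ± 27.8 CPM on the high side and 706.2 ± 26.6 CPM on the low side, a log2 change of -1.20 ± 0.10 (edgeR adjusted p = 6.39e-09). Uqcrh of complex III fell by 0.98. Ndufa4 was among the 3 that rose, by 0.72 at matched depth, but was at 0.09 when thinned (adjusted p = 0.327). In the list of mitochondrial protein upkeep and stress, 3 of 17 were higher and 3 lower at matched depth, and 1 was higher and 10 lower thinned. The matched counts lay near the 15.3% higher and 13.1% lower over all tested genes. Hspd1, the chaperonin of the mitochondrial matrix, rose by 1.62 at matched depth and by 0.59 thinned. Chchd2 and Tomm7, a part of the outer-membrane import pore, fell by 0.62 and 0.77.

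Genes of proteins made at the ER went the opposite way. The list of 16 tested heat shock and ER chaperone genes had 11 higher and 3 lower, with a median of 0.96. Split by compartment after the values were seen, all 9 ER chaperones and folding factors were higher, with a median of 1.47, whereas of 7 cytosolic chaperones 2 were higher and 3 lower. Calr, a calcium-binding chaperone of the ER lumen, had 1595, 2040 and 1619 CPM on the high side, against 685.9, 531.9 and 684.6 CPM on the low side. Its log2 change was 1.47 ± 0.10 (SE, edgeR adjusted p = 4.10e-10), with mouse 2 highest on the high side and lowest on the low side. Pdia6, a protein disulfide isomerase, had 513.9, 678.2 and 563.0 CPM on the high side, against 182.9, 130.5 and 188.6 CPM on the low side. Its log2 change was 1.81 ± 0.14 (edgeR adjusted p = 1.34e-09).

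The other ER genes ranged from Hspa5 (BiP), at 0.71, to Sdf2l1, a cofactor of BiP, at 2.01. Hsp90b1, the ER paralog of Hsp90, rose by 1.75, and Manf, a secreted factor of the ER lumen, by 1.47. Thinned, all 9 remained higher, with a median of 0.94. Of the cytosolic chaperones, Dnajb1 fell by 0.70, Dnaja1 by 0.48 and Hspa8 by 0.19, while Hsp90aa1 rose by 0.79 at matched depth. Thinned, none of the 7 cytosolic chaperones was called higher and 4 were called lower.

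Membrane proteins that T cells make in quantity were also higher. Of 20 listed genes for membrane and secreted proteins, 18 were higher and none lower, with a median of 0.55, and thinned all 20 were higher, with a median of 0.65. Cd52, a small lipid-anchored surface peptide, had 4631, 4383 and 4480 CPM on the high side, against 3063, 3216 and 2794 CPM on the low side, a log2 change of 0.57 ± 0.05 (edgeR adjusted p = 3.12e-08). Cd48, an adhesion receptor, rose by 1.27, and Ptprcap, which associates with CD45, by 0.67. H2-D1 and B2m, the 2 chains of an MHC class I molecule, rose by 0.54 and 0.39. Cd27 and Icos, both costimulatory receptors, were not called, at -0.08 and 0.18.

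Genes of the T-cell receptor complex and its signalling had 7 of 16 higher and none lower, with a median of 0.17, and 11 higher when thinned. Cd3g, a signalling chain of the receptor, averaged 2588 ± 200.5 CPM on the high side and 1816 ± 70.8 CPM on the low side, a log2 change of 0.51 ± 0.06. Cd4, the coreceptor, had 470.3, 414.1 and 488.5 CPM on the high side, against 371.7, 367.9 and 330.3 CPM on the low side, with a log2 change of 0.36 ± 0.10 (edgeR adjusted p = 0.0129). Ptprc, the phosphatase CD45, rose by 0.35 and Cd5 by 0.58. In that list the cytoplasmic kinases Lck and Zap70 and adaptors Lat and Lcp2 lay between -0.19 and -0.04, and none of these 4 was called.

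Nuclear-retained noncoding RNAs had 3 of 8 tested higher and none lower at matched depth, and 5 higher and 1 lower thinned. Kcnq1ot1, an antisense RNA of an imprinted locus, had 517.6, 464.1 and 618.6 CPM on the high side, against 356.9, 344.1 and 386.2 CPM on the low side, a log2 change of 0.55 ± 0.10. Neat1, the scaffold of paraspeckles, rose by 0.54. Xist, the RNA that coats the inactive X chromosome, had 3602, 3253 and 83.0 CPM on the high side, against 2202, 2068 and 26.9 CPM on the low side, and rose by 0.79. Its level was far lower in mouse 3 on both sides, so the rise rests on mice 1 and 2. Mouse 3 had the same direction at that low level, and the source of its Xist counts was not tested. Malat1, the most abundant of them, was level at matched depth, with 36760 ± 3896 CPM on the high side and 37020 ± 1259 CPM on the low side and a log2 change of -0.02 ± 0.03 (edgeR adjusted p = 0.759). Thinned, its log2 change was 1.01 (adjusted p = 2.26e-87), so Malat1 was called in 1 of the 2 comparisons. With all barcodes unmatched it was 1.2 (edgeR adjusted p = 4.90e-11). A p-value as small as the thinned one cannot come from the spread between 3 mice alone, so only the change itself is read here.

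**Figure D3:**
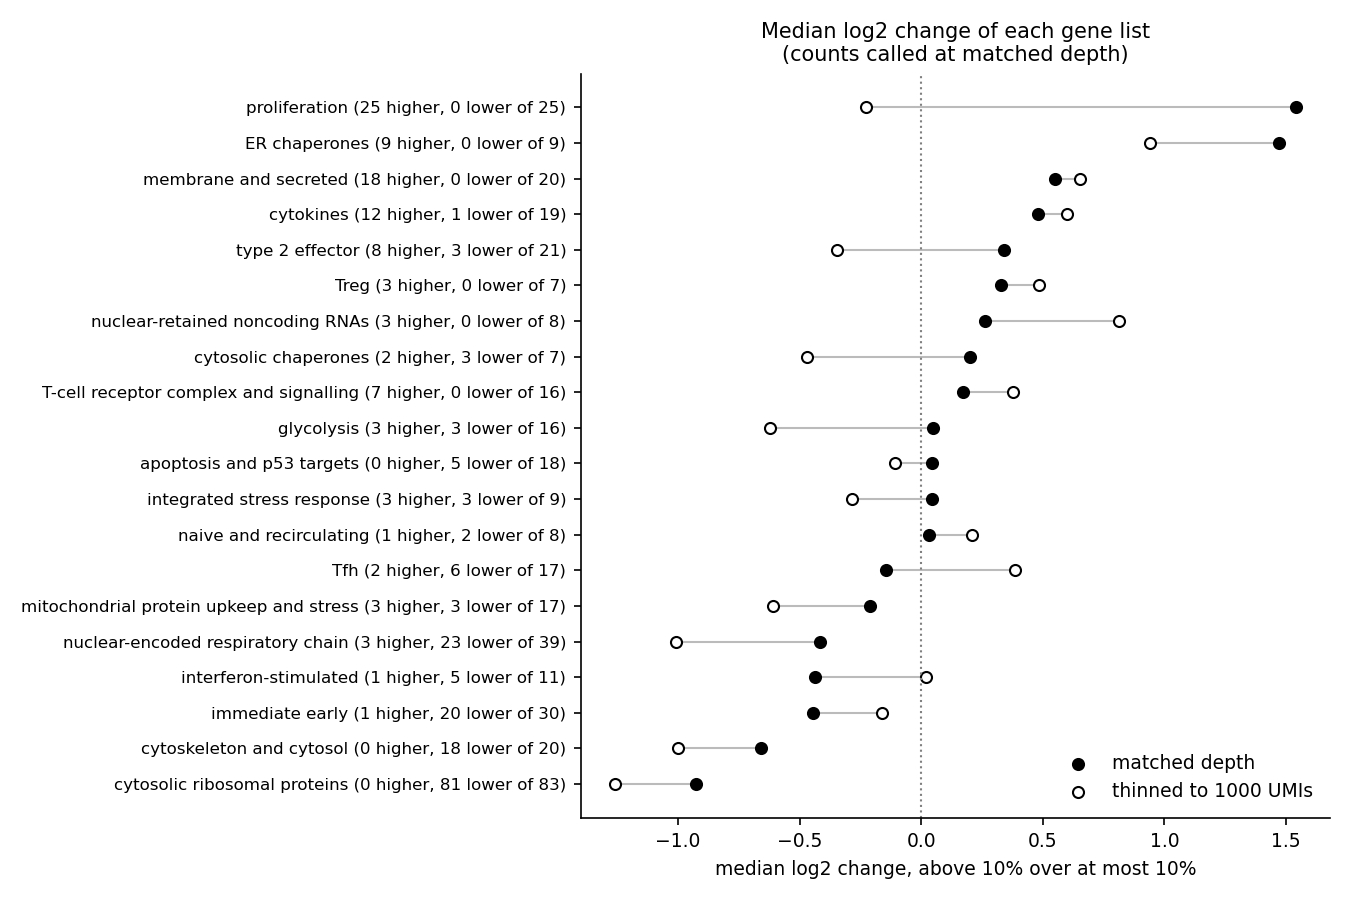
Median log2 change, high over low side (x axis), of each gene list with 7 or more tested genes, at matched depth (filled) and thinned to 1000 UMIs (open); labels give the genes called at matched depth. Ribosomal and cytoskeletal lists lay below 0 and ER chaperones and membrane proteins above 0 in both, while the medians of several lists differed in sign between the comparisons, with the proliferation list furthest apart; the ER and cytosolic chaperone lists were split after the values were seen.

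The proliferation list differed most between the matched and the thinned comparison. At matched depth 25 of 25 genes of DNA replication and mitosis were higher, with a median of 1.54. Mki67, the proliferation marker, had 574.9, 985.6 and 770.0 CPM on the high side, against 35.4, 107.9 and 90.8 CPM on the low side, a log2 change of 3.33 ± 0.14 (SE, edgeR adjusted p = 1.02e-13). Top2a, a topoisomerase of dividing cells, rose by 2.53 and Cenpf, a kinetochore protein, by 2.75. The largest rises were ranked among passing genes with proper names, 3 of 3 mice alike and 20 CPM or more on the higher side. The 10 largest were Mki67, Ncapg2, Neil3, Mcm10, Kif14, Cit, Hmmr, Bub1, Aspm and Bub1b, from 3.07 to 3.33. They are genes of chromosome condensation, DNA replication or repair, the spindle and its checkpoint, and cell division.

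Thinned, only 3 of those 25 were higher and 8 were lower, with a median of -0.23. Mki67 was still higher when thinned, at 0.96, and Tpx2, a spindle assembly factor, went to -0.06 (adjusted p = 0.841). Along the mitochondrial share, the list's part of the nuclear-genome UMIs had no single direction. It was 0.579% ± 0.183 below 3%, 0.550% ± 0.0642 at 3 to 5%, 0.256% ± 0.0311 at 5 to 7% and 0.271% ± 0.0437 at 7 to 10% (SD, n = 3 mice). Above the limit it was 0.383% ± 0.056 at 10 to 15%, 0.360% ± 0.103 at 15 to 20%, 0.317% ± 0.0266 at 20 to 30% and 0.470% ± 0.0405 above 30%. The mean of each bin above the limit thus lay below those of the 2 lowest bins and above those at 5 to 10%.

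In an alternative added after these results were seen, barcodes with any UMI of 11 mitotic genes were left out and depth was matched again. It called 446 of 4042 tested genes (11.0%), 204 higher (5.05%) and 242 lower (5.99%). It held 103, 84 and 118 barcodes per side in mice 1, 2 and 3, with 176121 to 259161 UMIs per sum. Median depths were 1654 to 1892.5 UMIs. Fewer barcodes, lower depth and the loss of mitotic barcodes cannot be told apart in the lower count of calls. In this alternative, 78 of 82 ribosomal protein genes were lower, with a median of -0.70. There, 7 of 9 ER chaperones were higher, with a median of 0.61, and 14 of 20 membrane and secreted genes, with a median of 0.48. Hsp90b1 was at 0.42 and not called (adjusted p = 0.13), and Calr rose by 0.87.

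Cytokine genes, which 30 minutes of stimulation induces, were mostly higher on the high side, with 12 of 19 higher and 1 lower and a median of 0.48. Thinned, 13 of 20 were higher and 3 lower, with a median of 0.60. Il13, a type 2 effector cytokine, had 1362, 2150 and 682.7 CPM on the high side, against 1089, 646.2 and 207.6 CPM on the low side. The direction was the same in 3 of 3 mice, the sides overlapped across mice, and the log2 change was 1.24 ± 0.17 (edgeR adjusted p = 7.73e-06) and 0.46 thinned. Ccl1, a chemokine, rose by 1.27 at matched depth and by 1.00 thinned. Il5, an eosinophil growth factor, rested on 132 UMIs on the high side and 19 on the low side, with a log2 change of 2.48 ± 0.40, and was not called when thinned, at 0.20. Il21, a Tfh cytokine, had a log2 change of 0.26 (adjusted p = 0.0642) at matched depth and rose by 0.67 thinned. Il4 had 62.2, 91.5 and 57.3 CPM on the high side, against 66.4, 79.8 and 62.9 CPM on the low side, and its log2 change was 0.01 ± 0.17 at matched depth and -0.02 thinned, called in neither.

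The gene programmes of helper subsets did not keep 1 direction. The type 2 effector list had 8 of 21 higher and 3 lower at matched depth (median 0.34), but 3 of 20 higher and 11 lower thinned (median -0.35). Vim, which encodes vimentin, was 1.06 at matched depth and -0.39 thinned, passing the threshold in opposite directions. Gata3, the type 2 master regulator, was not called at matched depth, at 0.30 ± 0.12 (adjusted p = 0.0685), and was lower thinned, at -0.31. Itgb1, an integrin chain, was higher in both, at 0.77 and 0.88.

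The Tfh list had 2 of 17 higher and 6 lower at matched depth (median -0.14), and 10 higher and 3 lower thinned (median 0.39). Cxcr5, the follicle-homing receptor, had a log2 change of -0.16 ± 0.19 at matched depth and 1.00 thinned (adjusted p = 4.08e-07). Pdcd1, the inhibitory receptor PD-1, was higher in both, at 0.55 and 0.58. Sh2d1a, the adaptor SAP, was lower in both, at -1.28 and -0.97, and so was Tcf7, a transcription factor of Tfh and naive T cells, at -0.93 and -0.30.

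Immediate early genes, induced within minutes of stimulation, had 20 of 30 lower and 1 higher at matched depth (median -0.45), and 14 lower and 6 higher thinned (median -0.16). Fos, an AP-1 subunit, had 2767, 2709 and 2609 CPM on the high side, against 5811, 4793 and 4637 CPM on the low side, a log2 change of -0.91 ± 0.05 (edgeR adjusted p = 3.06e-11). Jund fell by 0.96 and Nfkbia, the NF-κB inhibitor, by 0.70. Ier3, the 1 gene that rose, averaged 183.4 ± 74.5 CPM on the high side and 94.2 ± 58.4 CPM on the low side. In bins of mitochondrial share, the part of thinned UMIs taken by this list had no single direction. It was 2.34% below 3%, 2.58% at 3 to 5%, 2.85% at 5 to 7% and 2.75% at 7 to 10%. Above the limit it was 2.96% at 10 to 15%, 3.05% at 15 to 20%, 2.68% at 20 to 30% and 2.29% above 30%. The means at 10 to 15% and 15 to 20% thus lay above those of each bin below the limit. The mean above 30% lay below them. The SD over the 3 mice was 0.0709 to 0.671.

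Stress and death programmes had calls in both directions. Of 18 apoptosis and p53 target genes 5 were lower and none higher at matched depth, where 13.1% of all tested genes were lower and 15.3% higher; thinned, 5 were lower and 4 higher. Bax, a pore-forming killer protein, was lower in both, at -0.58 and -0.69, while Mcl1, a survival protein, was lower at matched depth, at -0.36, and not called thinned, at -0.13 (adjusted p = 0.215). Bcl2, another survival protein, was among the 4 higher when thinned, at 0.75. Of 9 genes of the integrated stress response 3 were higher and 3 lower (median 0.04), and thinned 1 of 8 was higher and 3 lower (median -0.28), with Ddit3 (CHOP) at -1.14 at matched depth and not called when thinned (adjusted p = 0.0544). Glycolysis had 3 of 16 higher and 3 lower (median 0.05), with Gapdh at -0.70; thinned it had 4 higher and 8 lower (median -0.62). Of 11 interferon-stimulated genes 5 were lower and 1 higher (median -0.44), and thinned 4 were lower and 1 higher (median 0.02). At matched depth Ifi27l2a fell by 1.34, and Bst2, a membrane-anchored restriction factor, rose by 1.15. Of 7 Treg genes 3 were higher, and thinned 5 were higher and 1 lower. Over all tested genes, 15.3% were higher and 13.1% lower at matched depth, and 22.0% higher and 23.6% lower thinned. Glycolysis at matched depth, with 3 of 16 each way, lay near those shares. No list was tested against them. Among naive-cell genes Klf2, a transcription factor of quiescent T cells, was lower at -0.68.

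The largest falls outside the ribosome were Ccl8, Zfand1, Hagh, Tpt1, Tcp11l2, Bad, Mea1 and Fahd2a, from -1.35 to -4.22. Thinned, Tcp11l2 and Fahd2a were not called, at -0.40 and -0.79 (adjusted p = 0.182 and 0.115). Ccl8, a chemokine of myeloid cells, rested on 10 UMIs on the high side and 175 on the low side in the matched sums. Over all assigned barcodes, the low side held 243 Ccl8 UMIs in 10 barcodes, 77 of them in 1. The high side held 10 Ccl8 UMIs in 5 barcodes. In mouse 1 the sides lay close, with 9.95 CPM on the high side and 13.3 CPM on the low side. Bad is a pro-apoptotic BH3 protein and Hagh a glyoxalase of the cytosol and mitochondria, at -1.40 and -1.57.

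The sort was checked against its markers in the matched sums. The 7 CD4 T-cell markers summed to 11370 to 12260 CPM on the high side and 8593 to 8679 CPM on the low side. The 7 macrophage markers summed to 21.9 to 876.4 and 18.8 to 365.1 CPM on the high and the low side, with Adgre1 at 0. The 6 B-cell markers left after the Cd79a filter summed to 157.1 to 1997 and 222.2 to 476.7 CPM, plasma-cell markers to 191.9 to 283.2 and 115.3 to 118.2 CPM, and dendritic-cell markers to 144.3 to 448.5 and 33.6 to 186.3 CPM, with Xcr1 and Siglech at 0. CD8 and NK markers were at 19.9 to 29.4 and 24.1 to 27.7 CPM, with Ncr1 at 0.

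In the tested lists of such cells, Lyz2 of macrophages, Cd74 of antigen-presenting cells, H2-Ab1, H2-Aa and Cst3 of dendritic cells and Hdc of mast cells and basophils were called higher on the high side. Those of Cd74, H2-Ab1 and H2-Aa changed sign without the Cd79a filter, to -0.25, -0.23 and -0.53, and without mitotic barcodes. Lyz2 was the 1 called of 5 tested macrophage genes, whose median was -0.04; of its 1459 UMIs on the high side, 890 sat in 1 barcode, and it was not called without mouse 1 or without mouse 3. Among CD8, NK and type 1 genes Ccl5 fell in both comparisons. Nkg7 was at 0.93 at matched depth and 0.11 thinned (adjusted p = 0.715), called in the first alone. Gzmb was called lower at matched depth, at -0.67, but mouse 3 ran the other way, with 49.6 CPM on the high side and 36.9 CPM on the low side, and thinned it was at 0.16 and not called (adjusted p = 0.492). The part of macrophage and B-cell barcodes in the other results was measured by keeping barcodes with a Cd3 UMI and without 7 macrophage and B-cell genes. That left 2290 of 7945 genes called (28.8%), with 81 ribosomal protein genes lower (median -0.95), all 9 ER chaperones higher (median 1.43) and 18 of 20 membrane and secreted genes higher (median 0.54). In that set Cd74, H2-Ab1, H2-Aa and Cst3 were still called higher, at 1.89, 2.87, 2.05 and 0.91.

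The shift was next followed along the mitochondrial share. Each barcode was thinned to 1000 nuclear-genome UMIs and the share of each group was taken per mouse in bins, as a description, since the bins use the same measure as the rule. Ribosomal proteins took 28.8% ± 0.577 of UMIs at 3 to 5% mitochondrial share, 30.5% ± 1.13 at 5 to 7%, 25.2% ± 1.5 at 7 to 10%, 15.8% ± 0.491 at 10 to 15%, 13.3% ± 0.548 at 15 to 20% and 13.3% ± 0.553 at 20 to 30% (SD, n = 3 mice). The largest drop between neighbouring bins lay between 7 to 10% and 10 to 15%, and the bins from 15% upwards lay between 13.3 and 14.02%. Cytoskeletal and cytosolic genes went down from 6.78% ± 0.234 at 3 to 5% to 3.06% ± 0.0783 at 15 to 20%. ER chaperones went up at each bin above 7%, with 0.290% ± 0.0394 at 7 to 10%, 0.481% ± 0.0549 at 10 to 15%, 0.594% ± 0.0671 at 15 to 20%, 0.688% ± 0.0358 at 20 to 30% and 0.815% ± 0.12 above 30%.

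Membrane and secreted genes took 1.32% ± 0.00987 at 5 to 7% and 3.06% ± 0.0636 at 20 to 30%. Malat1 took 2.54% ± 0.157 at 5 to 7% and 7.06% ± 0.513 at 15 to 20%, but 5.72% ± 0.533 above 30%, a bin of 63 barcodes. The bin below 3% held 163 barcodes and broke the trend for several groups, with 22.5% ± 1.59 for ribosomal proteins and 3.83% ± 1.11 for Malat1.

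**Figure D4:**
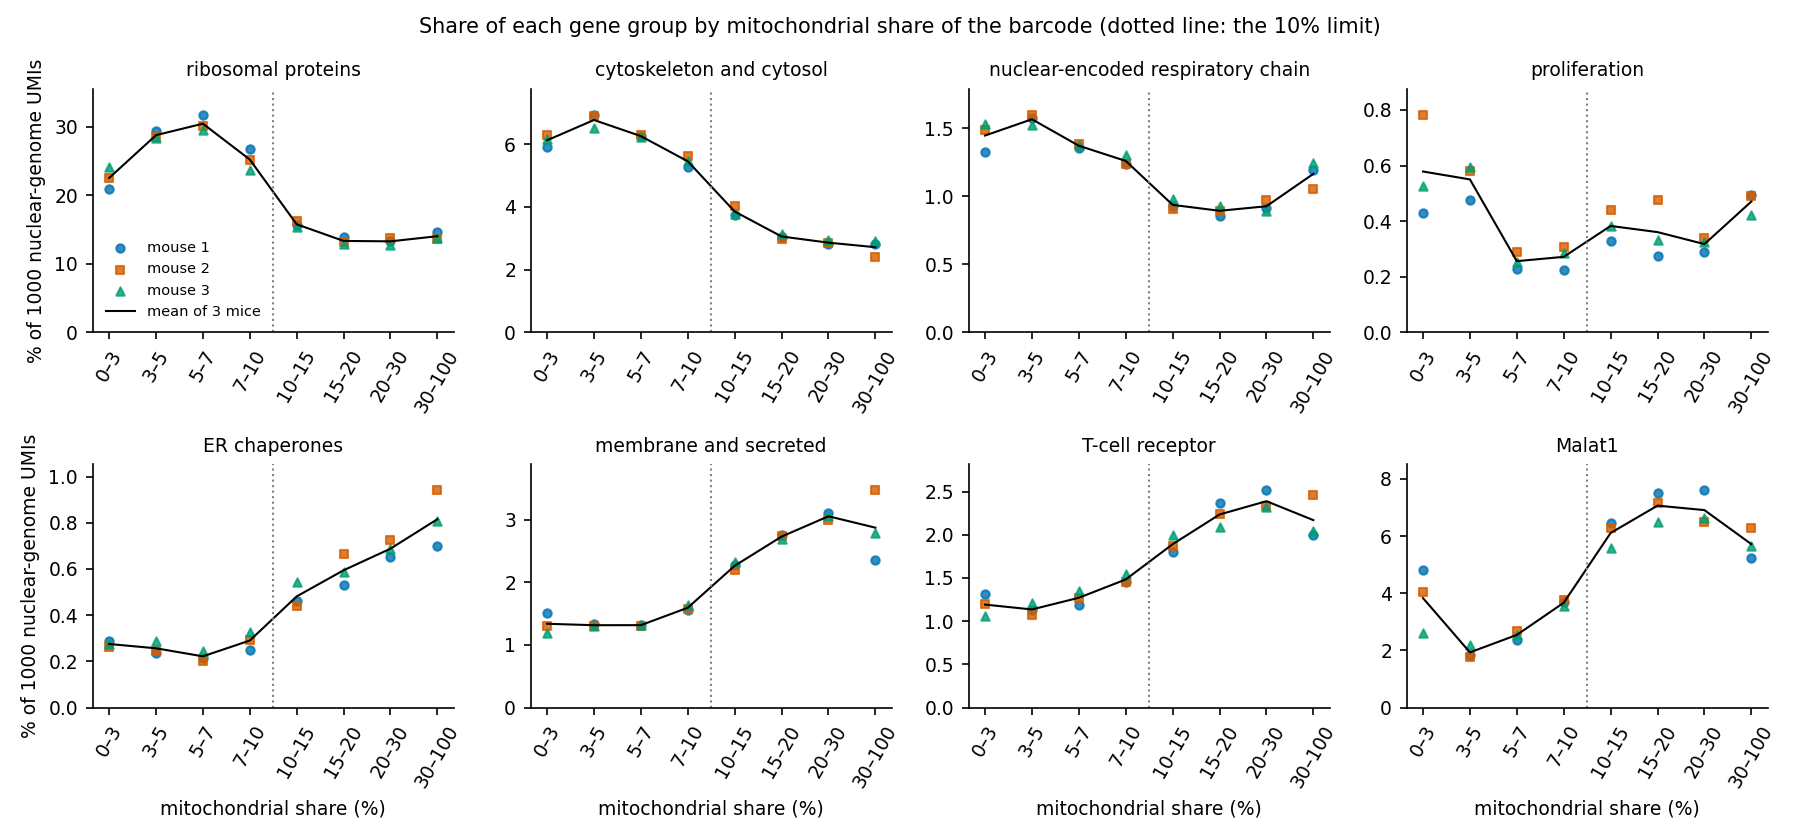
Share of 1000 thinned nuclear-genome UMIs taken by each of 8 gene groups (y axes, from 0) by mitochondrial share of the barcode (x axes), with 1 point per mouse and a line through the mean. Ribosomal proteins went down from 25.2% at 7 to 10% to 15.8% at 10 to 15% and 13.3% at 15 to 20%. ER chaperones and membrane genes were higher above the limit than below it, and proliferation had no single direction.

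Within each side, barcodes above and below the side's own median share were then compared at matched depth, with 17.8% as the median of the high side and 5.43% as that of the low side over the barcodes assigned to a mouse. Within the high side 615 of 6191 genes were called (9.93%), 396 higher (6.4%) and 219 lower (3.54%) above the median. Of 83 ribosomal protein genes 56 were lower above the median and none higher (median -0.30), 8 of 9 ER chaperones were higher (median 0.83), and 11 of 20 membrane and secreted genes were higher and none lower (median 0.32). Calr rose by 0.83 and Cd52 by 0.85, Rps27 fell by 0.62, and Malat1 fell by 0.18. The count rested on the mice: it was 122 without mouse 3 and 323 without mouse 2, and 167 without the mouse as a block.

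Within the low side 327 of 9581 genes were called (3.41%), 120 higher (1.25%) and 207 lower (2.16%). There 1 of 83 ribosomal protein genes was lower (median -0.05) and none of 9 ER chaperones was called (median 0.04). The type 2 effector list had 16 of 21 genes lower above the median and none higher (median -0.48), while the Tfh list had 9 of 18 higher and 3 lower (median 0.23). Ccl1 fell by 1.03, Il13 by 0.53 and Gata3 by 0.43, and Cxcr5 rose by 0.85 and Tcf7 by 0.39. This count fell to 20 without mouse 1 and to 4 without the mouse as a block. The 2 within-side comparisons share no barcode but share mice and lane. They had 67 called genes in common among the 6191 genes tested in both, and 43 of the 67 had the same direction. The 67 were 20.5% of all 327 calls of the low side and 10.9% of all 615 of the high side. For scale, 9.93% of genes tested within the high side and 3.41% of those within the low side were called.

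Further, 2 features of the transcripts that the rule did not use were then set beside the changes. Of the 8297 tested genes 7909 (95.3%) had a principal coding transcript in GENCODE M21. A protein was counted as having a hydrophobic stretch where some window of 19 residues had a mean Kyte-Doolittle hydropathy of 1.6 or more, a common mark of membrane-spanning and signal sequences. At matched depth the 2400 genes with such a stretch had a median log2 change of 0.34, with 30.1% called higher and 5.75% lower. The 5509 genes without one had a median of -0.09, with 9.0% called higher and 16.2% lower. Genes are not independent replicates, so these shares carry no test.

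Transcript length went with the changes as well. Genes with spliced transcripts up to 1000 bases had a median of -0.54, those of 1000 to 2000 bases -0.15, those of 2000 to 4000 bases 0.05 and those above 4000 bases 0.13. Within each length class the genes with a hydrophobic stretch were higher than those without: -0.10 and -0.58 up to 1000 bases, 0.34 and -0.26 at 1000 to 2000 bases, 0.37 and -0.05 at 2000 to 4000 bases, and 0.32 and 0.03 above 4000 bases. Thinned, the medians over all lengths were 0.47 with and -0.17 without a stretch, and within the high side they were 0.23 and -0.11. Without the mitotic barcodes they were 0.32 and -0.10, and within the low side 0.03 and -0.01.

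**Figure D5:**
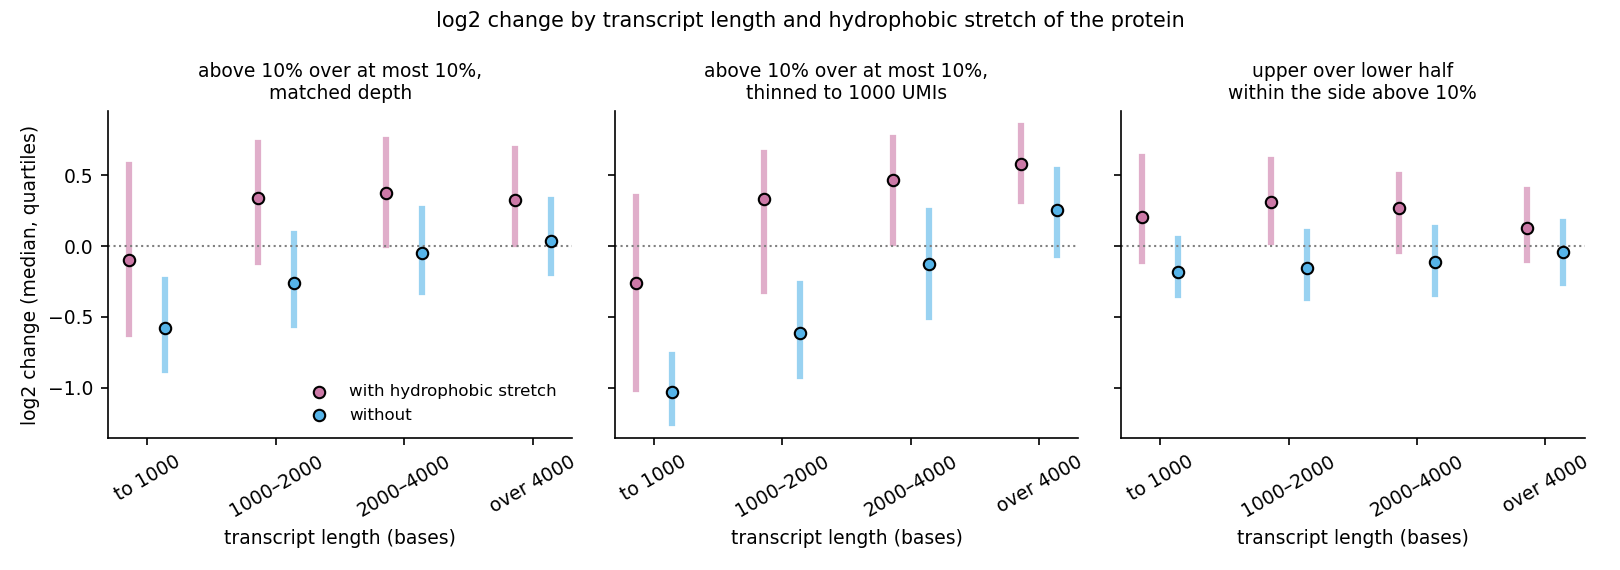
log2 change of genes (y axis; points are medians, bars the quartiles) by transcript length class (x axis) and by whether the protein has a hydrophobic stretch, at matched depth, thinned, and within the side above 10%. Genes with a stretch had the higher median in each class of the 3 comparisons, and the shortest transcripts without one had the lowest medians between the sides, -0.58 at matched depth and -1.03 thinned.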

How the data were processed

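Members, gene lists and tests were chosen with earlier results of these data known. The deposited RNA matrices are raw UMI counts, and the deposited hashtag tables raw counts per tag, with no statement whether reads or molecules were tallied. Cell Ranger 2.2.0 is named in the submitters' processing notes, with bcl2fastq 2.18.0.12 and 2.20.0.422 and builds mm10 and GRCm38; the reporter matrix came from Cell Ranger 3.0.2, per the file headers. The annotation release is not given in the sources used here. Of 28692 features, 28625 symbols remained after summing duplicates.

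Each mouse gave both sides, so sums of UMIs per mouse and side were fitted with the mouse as a block, since same-numbered sums come from the same animal. edgeR 4.0.16 (R 4.3.3) used TMM factors of nuclear-genome totals, filterByExpr with min.count at 10 and a Benjamini-Hochberg adjusted threshold of 0.05 over all tested genes; an SE is the absolute log2 change over the square root of F. DESeq2 1.42.0 was another tool. Depth bins were 0.05 log10 units wide. The edgeR script was tested on simulated data.

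Doublets between mice were left out by the tag ratio of 3; doublets within a mouse were not seen. Intervals cover counting error only. The labels say that each mouse was tagged; the 3 hashtags in the deposited table were taken as 3 mice.

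Named genes were Il4, Il5, Il13, Il21, Gata3, Bcl6, Cxcr5, Pdcd1, Foxp3, Cd4, Cd3e, Malat1, Fos and Actb where tested (Foxp3 was not), the 10 largest rises and falls with 3 of 3 mice alike and 20 CPM or more on the higher side, and up to 4 passing genes of lowest p per list. Others were named after their values were seen. Gene models without proper names were passed over, and list members that the files do not name were not analysed here; some named genes are not reported here. Alternatives changed scaling, tool, filter, block, depth matching, limit, gene minimum, tag ratio, B-cell filter or mice. Those of the within-side comparisons, and leaving out mitotic barcodes, were chosen after seeing the data.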

Additional observations from a re-analysis of the deposited data

How the results depend on the processing

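At matched depth the count of 2349 genes kept within 1.5 times under most alternatives. It was 5949 with all barcodes unmatched, 329 with the limit at 5%, 1131 with the limit at 20%, 1364 for barcodes above 20% against those at most 5%, 446 without mitotic barcodes and 940 with DESeq2. Leaving out each mouse gave 1421 (without mouse 3) to 1881 genes. With no replicate block, so without the pairing of sides within a mouse, it was 1936. Above against below the median, within the low side 327 became 4 with no replicate block, 87 with DESeq2 and 20 (without mouse 1) to 358 leaving out mice. Within the high side 615 became 167 with no replicate block, 96 with DESeq2, 178 with no filter on low counts and 122 (without mouse 3) to 517 leaving out mice, with 323 without mouse 2. The barcodes above the limit averaged 29.7% per mouse, and 37.7% at a gene minimum of 200, 18.96% at 1000, 72.6% with the limit at 5% and 11.6% at 20%; leaving out mice gave 28.7 to 30.3%. The difference in genes per 1000 UMIs was 52.6 to 57.6 leaving out mice. The cause of these changes was not tested.

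Of the 2329 values recomputed, 1977 kept their direction and side of the threshold, or stayed close, and 85 changed sign. Among the log2 changes of named genes, 228 values became weaker and 20 stronger. The limit at 5% moved most of the 106 log2 changes: 26 stayed the same, 59 became weaker and 21 changed sign. With the limit at 5% the log2 change became -0.42 for Il4, -0.12 for Il13, -0.20 for Il21, -0.41 for Gata3, 0.52 for Bcl6, 0.88 for Cxcr5, -0.091 for Cd3e, 0.11 for Malat1, -0.44 for Ccl1, 0.25 for Sh2d1a, 0.31 for Tcf7, -0.26 for Igfbp7, -0.014 for Vim, -0.064 for Itgb1, -0.0083 for Il2ra, -0.25 for Tnfrsf18, 0.34 for Lef1, -0.039 for Cd3g, 0.0040 for Ppp1r15a, -0.24 for Psat1 and -0.60 for Hdc. With the limit at 20% it was -0.32 for Il4, -0.028 for Il21, 0.25 for Cxcr5, -0.39 for Nkg7 and -0.041 for Hdc. Above 20% against at most 5% it was -0.23 for Il4, -0.32 for Gata3, 0.13 for Cxcr5, 0.026 for Malat1 and -0.20 for Il6.

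Thinned, it was -0.016 for Il4, -0.31 for Gata3, 0.38 for Bcl6, 1.0 for Cxcr5, 1.01 for Malat1, -0.39 for Vim, -0.056 for Tpx2, -0.067 for Psat1 and 0.16 for Gzmb. Unmatched, it was -0.29 for Gata3, 0.55 for Bcl6, 0.92 for Cxcr5, 1.2 for Malat1, -0.61 for Vim, -0.018 for Tpx2 and -0.65 for Psat1. In bins of 0.2 it was -0.083 for Il4 and 0.032 for Malat1. Other draws of matched barcodes gave 0.017 and 0.060 for Malat1 and 0.21 for Gzmb.

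Without mitotic barcodes it was 0.70 for Bcl6, 0.64 for Cxcr5, 0.29 for Malat1, -0.40 for Vim, 0.77 for Atf3, 0.045 for Isg15, -0.55 for Cd74, -1.37 for H2-Ab1, -0.68 for H2-Aa and 0.41 for Gzmb. Without the Cd79a filter it was 0.089 for Malat1, -0.25 for Cd74, -0.23 for H2-Ab1 and -0.53 for H2-Aa. In Cd3-positive barcodes it was 0.027 for Bcl6, 0.10 for Cxcr5 and 0.026 for Malat1. At a gene minimum of 200 it was -0.066 for Il4, 0.071 for Cxcr5 and 0.047 for Malat1, and at 1000 it was 0.037 for Malat1 and 0.57 for Gzmb. At a tag ratio of 5 it was 0.086 for Cxcr5, 0.11 for Malat1 and 0.15 for Gzmb. RLE factors gave -0.012 for Il4 and DESeq2 -0.022 for Il4. Plain totals gave 0.084 for Bcl6, 0.070 for Cxcr5 and 0.21 for Malat1. Leaving out each mouse gave -0.11 (without mouse 2) to 0.064 for Il4, -0.30 to 0.063 (without mouse 2) for Cxcr5 and -0.069 to 0.038 (without mouse 2) for Malat1.

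Ribosomal proteins were lower and ER chaperones higher by their medians under each of these settings, from -0.14 and 0.38 with the limit at 5%. Both sides share 1 lane, 3 mice carry each value, and genes under 10 counts were mostly not tested.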

Other observations

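Some transcripts of other tissues and cells sat in single barcodes, with genes chosen after their values were seen. Gcg, the glucagon gene, had 551 UMIs in 6 barcodes of the high side, 488 of them in 1 barcode, and 112 UMIs in 12 barcodes of the low side, 68 of them in 1. Lyz2, lysozyme of myeloid cells, had 1459 UMIs in 33 barcodes of the high side, 890 of them in 1, and 951 UMIs in 91 barcodes of the low side, 299 of them in 1. Igkc, an antibody light chain, had 1351 UMIs on the high side, 810 of them in 1 barcode, against 1453 UMIs spread over 979 barcodes on the low side, with at most 14 in 1. Il22, a cytokine of helper cells and innate lymphocytes, had 98 UMIs in 11 barcodes of the high side and 140 UMIs in 37 barcodes of the low side.

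Hashtag counts were also summed over each mouse and side and divided by the summed nuclear-genome UMIs. Per 1000 such UMIs there were 171.6, 150.4 and 160.1 tag counts on the high side, against 45.4, 45.1 and 40.2 on the low side in mice 1, 2 and 3. The top tag took 88.5%, 89.5% and 90.3% of tag counts on the high side and 91.7%, 92.8% and 92.4% on the low side.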
